A study of Mus musculus with 6 samples.

Results

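The genes that flank Rtn4 on mouse chromosome 11 were examined in lungs with and without a deletion at that locus. Rtn4 encodes the Nogo proteins, which belong to the reticulons, a family of membrane proteins of the endoplasmic reticulum. Probes were taken by position alone, from 9693516 to 49693516 on chromosome 11 of the build mm7, which is 20 Mb to either side of the start of the brightest Rtn4 probe at 29693516. Probes of Rtn4 and of the transcript AK080804, and any probe between 29600000 and 29700000, were left out, which removed 7 probes. This gave 439 probes of the 41144 on the array, and 318 of them, for 204 genes or transcripts, passed the scanner's call of well above background on 3 or more of 6 arrays, without regard to genotype. Of the others, 85 passed on 0 arrays, 22 on 1 array and 14 on 2 arrays. The share that passed was 72.4% in the flanks and 74.1% over the whole array.

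All samples were whole lungs from male mice of 8 weeks that had received no treatment. One group was wild type, with lungs numbered 11, 12 and 13, and the other was Nogo-A/B knockout, with lungs numbered 1, 11 and 12. The design text calls the 3 lungs of a group individual biological replicates. The labels give the same sex, age and tissue for both groups, and give neither the strain of the mice nor how the allele was made, so the origin of the chromosome around the deletion is not known here.

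Nogo-A and Nogo-B are the longer products of Rtn4, and Nogo-C is a shorter one made from another promoter; Nogo-A is best known as an inhibitor of axon growth, and Nogo-B is found in many tissues, the lung among them. In a mouse line made by targeting a gene in embryonic stem cells, the stretch of chromosome next to the target is inherited together with it and can keep the sequence of the stem cells' strain through backcrossing. A deletion can also take with it control elements of the genes beside it. The comparison asks whether probes near Rtn4 differed between the genotypes more often, or by more, than probes farther along the chromosome and elsewhere.

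Each probe is a 60-base oligonucleotide. Several of those near Rtn4 have positions on mm7 that span more than 60 bases of the chromosome, so that they match transcript sequence on both sides of a gap in the genome. Such probes of Ccdc85a and Erlec1 are not printed. The sequences of the others are printed because they read joined transcript sequence of genes on either side, with an Rtn4 probe for comparison. They are given 5′ to 3′ as in the array files, all in lower case since no stretch is singled out. The Pnpt1 probe lies at chr11:29090225-29090432 on the plus strand, the Mtif2 probe at chr11:29490750-29492083 on the plus strand, the Rtn4 probe at chr11:29693536-29694301 on the plus strand, the Sptbn1 probe at chr11:30106364-30111314 on the minus strand, and the Psme4 probes at chr11:30773060-30775104 and chr11:30828874-30830432 on the plus strand.
Pnpt1: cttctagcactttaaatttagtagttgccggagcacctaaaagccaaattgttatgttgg
Mtif2: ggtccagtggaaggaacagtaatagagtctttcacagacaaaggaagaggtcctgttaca
Rtn4: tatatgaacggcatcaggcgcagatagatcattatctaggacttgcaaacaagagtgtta
Sptbn1: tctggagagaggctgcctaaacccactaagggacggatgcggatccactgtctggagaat
Psme4, first: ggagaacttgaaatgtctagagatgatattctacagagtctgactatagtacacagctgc
Psme4, second: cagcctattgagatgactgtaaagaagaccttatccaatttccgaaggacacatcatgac

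Signals are given on the log2 scale with 0 set at the 75th percentile of the array's probes. A difference is the mean of the 3 knockout lungs minus the mean of the 3 wild-type lungs on that scale, and every SD below is over n = 3. On a single array, 68.9% to 78.0% of probes passed the background call. Per the file headers there were 2 scan days. Day 1 held knockout 1, knockout 11 and wild type 13, and day 2 held knockout 12, wild type 11 and wild type 12. Over all probes, correlations were 0.972 to 0.994 between arrays of one day and 0.943 to 0.961 between days. The defining markers of the labelled tissue were present: all 10 listed genes of the lung epithelium were measured, and the log2 of their summed level was 9.60 to 9.94 over the wild-type lungs and 9.80 to 10.3 over the knockout lungs.

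No flanking probe had an adjusted p under 0.05, and only 2 of the 30505 probes tested did. At that share a 0 among 318 flanking probes says little by itself. In limma, 0 of the 318 flanking probes had an adjusted p under 0.05 and 4 had an unadjusted p under 0.05. Under the 21 alternative settings 0 flanking probes passed after adjustment, and over the whole array 0 to 4 probes did. Where the whole array gave 0, as without wild type 11, a 0 in the flanks says little. Without these changes 2 of 30505 probes over the array passed (0.00656%), and both lay in the window left out around Rtn4. The first is the Rtn4 probe of the transcript AK047982, centromeric to the reference position at 29649392 to 29649451. Its signal was -3.03, -2.89 and -2.27 in wild type 11, 12 and 13 against -8.03, -8.46 and -8.29 in knockout 1, 11 and 12, and no knockout array passed the background call. The knockout signal was lower by at least 14.3-fold, at a limma adjusted p of 0.0164. The second is AK080804, at 29664271 to 29664330, which was lower by at least 7.56-fold at a limma adjusted p of 0.0458. Both probes entered the test through the 3 wild-type arrays alone, as 0 knockout arrays called either above background. With the filter at all 6 arrays neither was tested, and 0 probes of the array passed after adjustment. A fold given as "at least" sets the wild-type mean against the higher of the knockout signal and the lowest signal called above background on each array.

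The brightest Rtn4 probes, at the reference position, were lower in every knockout lung than in every wild-type lung but stayed above background, while probes of the next gene, Eml6, did not separate. The first of these Rtn4 probes had values of 1.69, 1.62 and 2.36 in wild type 11, 12 and 13 against 1.10, -0.71 and -1.79 in knockout 1, 11 and 12. It differed by -2.36 (SE 0.72), at a limma unadjusted p of 0.0165 and an adjusted one of 0.9999, and by -2.81 with the day of scanning as a block, and the second by -2.29 (SE 0.76). These Rtn4 probes overlap in sequence, so they are not independent readings. The array files assign them to several transcript variants of Rtn4, so they do not single out the deleted products. Eml6, a microtubule-associated protein-like gene on the opposite strand, had a probe 1.94 kb past that position. Its signal was -3.06, -3.00 and -2.84 in the wild type against -2.95, -3.33 and -2.85 in the knockout, in the order of the lung numbers, a difference of -0.08 (SE 0.20). A second Eml6 probe at 2.77 kb gave 0.94, 0.96 and -0.76 in the wild type against 1.39, 1.63 and 0.57 in the knockout, a difference of 0.82 (SE 0.55). Its groups overlapped, and wild type 13 alone lay apart from the other 5 lungs. One more Eml6 probe, 51.9 kb away and the nearest of the flanking probes, gave -4.34, -3.99 and -3.53 against -4.19, -3.92 and -3.72, with a difference of 0.01 (SE 0.26).

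**Figure D1:**
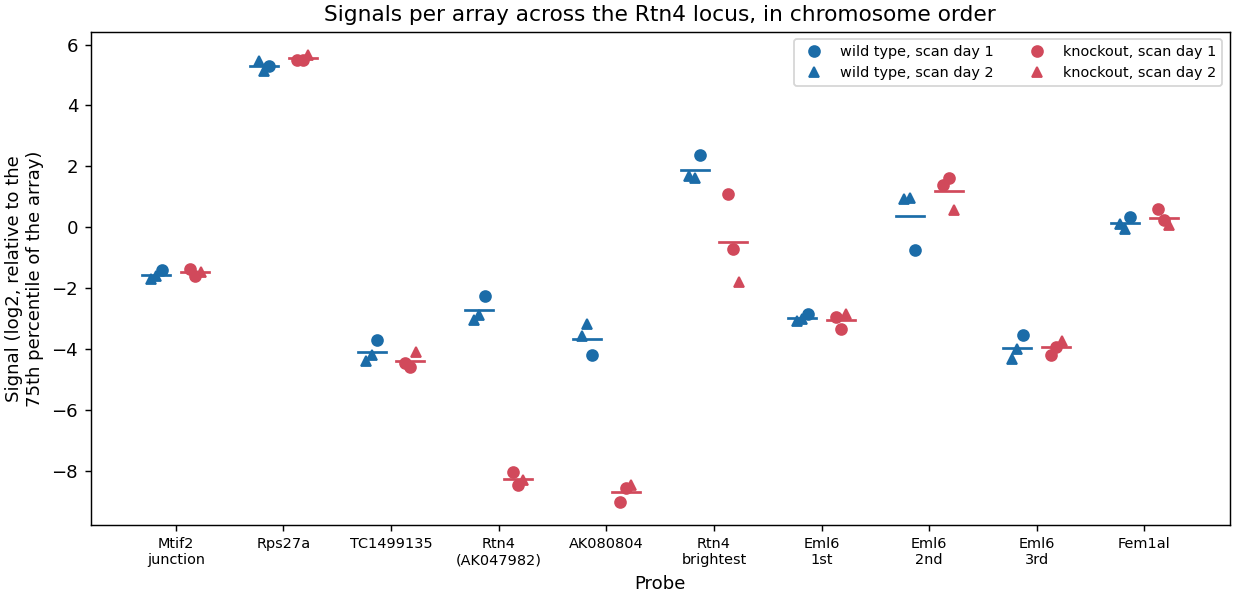
Signal of each lung (log2, with 0 at the array's 75th percentile) at 10 probes in chromosome order across Rtn4, wild type in blue and knockout in red, circles for scan day 1 and triangles for scan day 2, with a line at each group's mean. The AK047982 and AK080804 probes fall below -8 in all 3 knockout lungs, and the brightest Rtn4 probe lies lower in each of them (difference -2.36). Among the probes on either side of the locus the largest gap is at the second Eml6 probe, 2.77 kb away (difference 0.82).

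Toward the centromere, the nearest measured genes are Rps27a, Mtif2 and Prorsd1, about 0.2 Mb from the reference position. Rps27a encodes ubiquitin joined to a protein of the small ribosomal subunit. Its signal was 5.47, 5.14 and 5.29 in the wild type against 5.48, 5.48 and 5.67 in the knockout. Every knockout value lay above every wild-type value, with the closest at 5.48 and 5.47, and the difference was 0.24 (SE 0.17; 95% interval -0.18 to 0.67). With normexp background correction it was 0.13, and in the authors' deposited values 0.12. It was the only flanking probe under 2 Mb whose groups did not overlap. Over the array the groups did not overlap for 3.74% of probes, and under 2 Mb they did not for 1 of 51, or 1.96%.

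Mtif2, a mitochondrial initiation factor of translation, did not separate by genotype. Its gap-spanning probe, whose sequence is given above, measured -1.70, -1.60 and -1.41 in the wild type against -1.37, -1.59 and -1.46 in the knockout, a difference of 0.10 (SE 0.17). Its other probe differed by 0.02 (SE 0.19). For both, the wild-type and knockout values were interleaved.

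Prorsd1, which encodes a protein with a domain related to prolyl-tRNA synthetase, had 3 probes with differences of 0.08, -0.44 and -0.14. The middle one had the smallest p of any probe under 2 Mb, a limma unadjusted p of 0.118. It measured -5.82, -6.10 and -6.48 in the wild type against -6.69, -6.73 and -6.30 in the knockout, so that knockout 12 lay among the wild-type lungs. These signals were near the lower limit of the arrays, and 1 of the 3 knockout lungs was above background. The transcript TC1499135, which lies beside Rps27a at 195 kb, differed by -0.30 (SE 0.25), again with overlapping groups.

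Ccdc88a encodes girdin, an actin-binding protein. Of its 4 probes, 3 differed by 0.06 to 0.10. The remaining one measured -2.81, -2.47 and -1.02 in the wild type against -0.37, -0.97 and -2.45 in the knockout, a difference of 0.84 (SE 0.68). The high values were those of the 3 lungs scanned on day 1, of either genotype, and a fit with the day as a block gave 0.27.

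Farther toward the centromere, Cfap36, a gene of cilia, differed by 0.05 (SE 0.17), and the 2 probes of Ppp4r3b, a regulatory subunit of protein phosphatase 4, by 0.08 and -0.18. The gap-spanning probe of Pnpt1, the mitochondrial polynucleotide phosphorylase, measured -4.63, -4.38 and -4.47 in the wild type against -4.51, -4.18 and -4.36 in the knockout, and its difference was 0.14 (SE 0.18). A second Pnpt1 probe differed by 0.05 (SE 0.20). Efemp1, an extracellular matrix glycoprotein of the fibulin family, measured 4.44, 4.26 and 4.04 against 3.73, 3.73 and 4.69, a difference of -0.19 (SE 0.31) with knockout 12 the highest of all 6 lungs. The 3 probes of Ccdc85a, the farthest named gene on that side, differed by -0.12 to 0.27.

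Toward the telomere, the first gene after Eml6 is Fem1al, with a difference of 0.18 (SE 0.21). A probe that the array files place beside it is named Fem1a, a gene that RefSeq puts on another chromosome, and it differed by -0.26 (SE 0.40). Sptbn1, which encodes a nonerythroid beta spectrin of the membrane skeleton, comes next and had 5 probes. Its 2 probes nearest to Rtn4 measured within a narrow range. One gave 6.85, 6.68 and 6.36 in the wild type against 6.48, 6.79 and 6.90 in the knockout (difference 0.09, SE 0.21), and the other differed by -0.03 (SE 0.17).

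The gap-spanning Sptbn1 probe, at 413 kb, gave one of the largest differences near Rtn4, and its values fell by scan day. It measured -1.26, -0.74 and 2.29 in the wild type against 2.67, 1.94 and -0.67 in the knockout, a difference of 1.22 (SE 1.22). The 3 values above 1.9 were those of day 1 and the 3 below 0 those of day 2. Day 1 alone gave 0.02, day 2 alone 0.33, and the fit with the day as a block 0.17. The transcript AK083869, at 432 kb, behaved alike, with -6.27, -5.72 and -2.03 in the wild type against -1.85, -3.07 and -5.27 in the knockout. Its difference was 1.28 (SE 1.35), and 0.15 with the block. These were the only flanking probes under 2 Mb that differed by at least 1, a size reached by 3.10% of probes over the array and by 2 of 51 here (3.92%).

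Acyp2, an acylphosphatase, differed by 0.43 (SE 0.47) and by 0.07 with the block. Psme4 encodes PA200, an activator of the proteasome, and had 4 probes. Its second gap-spanning probe measured 0.43, 0.37 and 0.07 in the wild type against 0.20, -0.07 and 0.64 in the knockout, a difference of -0.03 (SE 0.24). The first one differed by 0.33 (SE 0.44), with its high values on day 1, and by -0.01 with the block. The other 2 Psme4 probes differed by 0.55 (SE 0.43) and 0.15 (SE 0.25), and none of the 4 separated the groups.

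The remaining genes on that side also had overlapping groups. Erlec1, a lectin of the endoplasmic reticulum, had probes with differences of 0.28 and -0.13. Chac2, an enzyme that breaks down glutathione, differed by 0.02 (SE 0.17). The 3 probes of Asb3, a protein with ankyrin repeats and a SOCS box, differed by -0.04 to 0.32. Stc2, the secreted glycoprotein stanniocalcin 2, differed by 0.09 (SE 0.16), and Bod1, which serves chromosome orientation in mitosis, by 0.01 (SE 0.20). Clhc1 and Gpr75, which also lie near Rtn4, had no probe that passed the background call.

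For most of these probes the data bound the difference. Of the 51 flanking probes under 2 Mb, 35 had a 95% interval that lay between -1 and 1 on the log2 scale, and none had one that left out 0. The median interval reached 0.61 to either side, and over the array it reached 0.64.

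**Figure D2:**
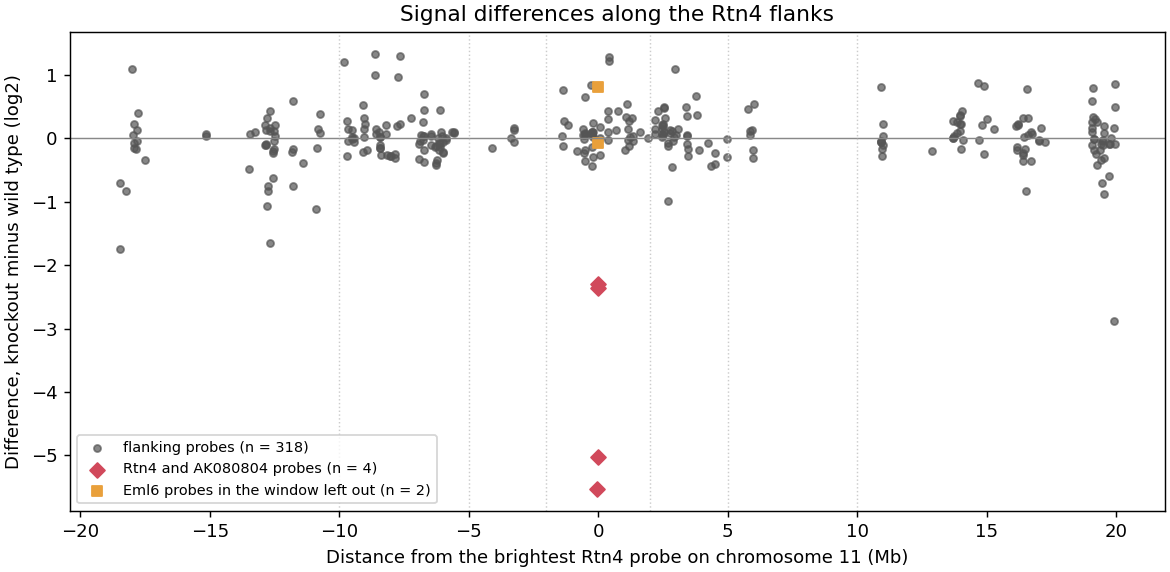
Difference of each flanking probe (knockout minus wild type, log2) against its distance from the brightest Rtn4 probe in Mb, negative toward the centromere. Grey points are the 318 flanking probes, red diamonds 4 Rtn4 and AK080804 probes and orange squares the 2 Eml6 probes of the window left out, and dotted lines mark 2, 5 and 10 Mb. The red points lie between -5.53 and -2.29, while the flanking probes spread around 0 at every distance, with the lowest at -2.87 (Scgb3a1).

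The size of the difference did not fall with distance from Rtn4. The median size was 0.14 over the 51 probes under 2 Mb, 0.15 over the 48 probes from 2 to 5 Mb, 0.15 over the 83 from 5 to 10 Mb and 0.19 over the 136 from 10 to 20 Mb. It was 0.16 over all probes tested and 0.16 over the 2092 probes of the rest of chromosome 11. Across the 318 flanking probes, which share the 6 lungs and are not independent, the size correlated with distance at a Pearson r of 0.13 (Spearman 0.10), and with the mean signal at a Pearson r of -0.22 (Spearman -0.29). The bins differ in brightness, with a median signal of -1.33 under 2 Mb and -2.62 from 10 to 20 Mb.

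Counts by bin gave the same picture. In limma, 4 of 318 flanking probes had an unadjusted p under 0.05 (1.26%, against 0.842% of all probes), 3 lower in the knockout and 1 higher, against 0.590% and 0.252% of all probes. All 4 lay from 10 to 20 Mb, and 0 lay nearer. With the day as a block there were 8 (2.52%, against 2.13% of all probes), 7 from 10 to 20 Mb and 1, a probe of Ehbp1, from 5 to 10 Mb. The groups did not overlap for 17 flanking probes, 11 lower (against 1.68% of all probes) and 6 higher (against 2.06%), which is 5.35% in all. There was 1 under 2 Mb, 2 from 2 to 5 Mb, 5 from 5 to 10 Mb and 9 from 10 to 20 Mb. The share was 1.96% in the nearest bin and 6.62% in the farthest.

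Near Rtn4 more probes were higher than lower in the knockout, but not in both scan days. Under 2 Mb, 36 of 51 differences were above 0, or 70.6%, against 52.2% over the array, with a median of 0.08 against 0.01. Within day 1 the median there was -0.07, with 20 of 51 above 0, and within day 2 it was 0.13, with 35 of 51 above 0. The median over all probes moved in the same way, from -0.06 on day 1 (43.4% above 0) to 0.07 on day 2 (58.7% above 0). The fit with the day as a block gave 0.03. The difference had the same sign on both days for 14 of the 51 probes. Over all 318, the same sign was found for 115, and the differences of the 2 days correlated at a Pearson r of -0.08 (Spearman -0.33). Within a day 1 genotype has a single lung, so these values carry no spread of their own.

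More flanking probes differed between scan days than between genotypes. Between the days, with genotype in the same limma fit, 60 of 318 flanking probes had an adjusted p under 0.05 (18.9%, against 16.0% of all probes), 50 brighter on day 1 and 10 brighter on day 2. Under 2 Mb there were 11, every one brighter on day 1. All 11 were also higher in the knockout, with a median difference of 0.43 that became -0.13 once the day was a block. The other 40 probes under 2 Mb had a median of 0.03, with 25 higher in the knockout and a range from -0.44 to 0.55. Day 1 held 2 of the 3 knockout lungs and 1 of the 3 wild-type lungs, so a difference between days enters the difference between genotypes. All arrays of day 2 lay on slide 3 and those of day 1 on slides 1 and 2. A difference between days is thus also one between slides. The summed mesothelium markers split by day too, at 3.75 to 3.85 on day 1 against 5.28 to 5.83 on day 2. Cardiac muscle markers split the other way, at 4.41 to 6.12 against 1.90 to 3.21, and lung epithelium markers overlapped. What underlies the split by day was not tested.

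The largest positive differences of the flanks were those of probes brighter on day 1. A difference of at least 1 was found for 13 flanking probes (4.09%), 8 higher and 5 lower in the knockout. For all 8 higher ones, every lung of day 1 lay above every lung of day 2, 7 of them had an adjusted p under 0.05 between days in limma, and with the block their differences were 0.08 to 0.46. Peli1, an E3 ubiquitin ligase of innate immune signalling, is the largest. One of its probes measured -6.01, -5.57 and -2.73 in the wild type against -2.03, -3.42 and -4.87 in the knockout, a difference of 1.33 (SE 1.07), while its other 2 probes differed by 0.06 and 0.14. Of the 13, 4 still differed by at least 1 with the block, all of them lower in the knockout and 10 to 20 Mb away.

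**Figure D3:**
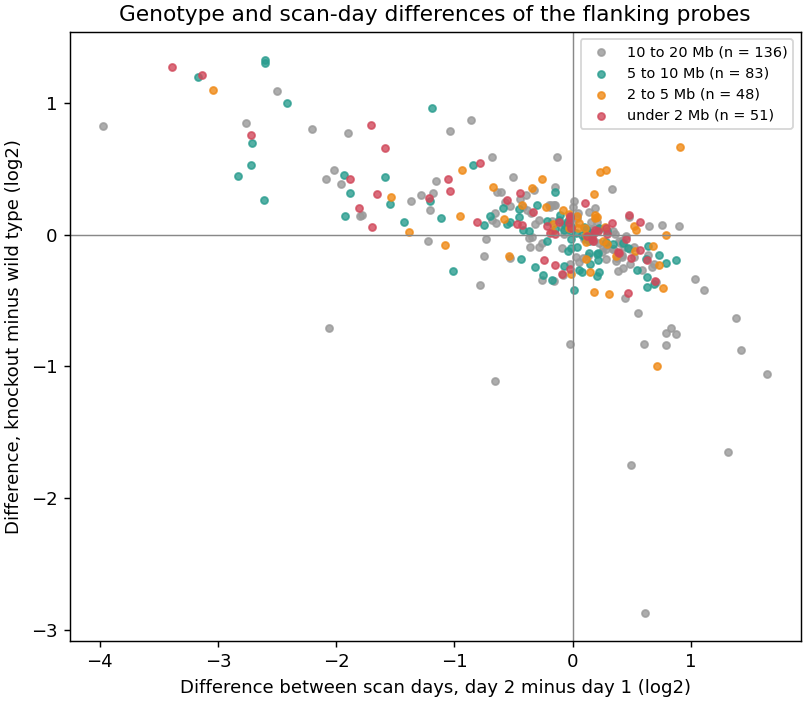
Difference between genotypes (knockout minus wild type, log2) of the 318 flanking probes against their difference between scan days (day 2 minus day 1, log2, with genotype in the fit), coloured by distance from Rtn4. The 8 probes with a genotype difference of at least 1 all lie at the left, brighter on day 1, and the lowest point is Scgb3a1 at -2.87. Both axes are computed from the same 6 arrays.

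The flanking probe with the smallest p lay near the outer edge. Vwc2 encodes a secreted antagonist of bone morphogenetic proteins and lies 18.5 Mb toward the centromere. Its signal was -3.09, -3.49 and -3.32 in wild type 11, 12 and 13 against -6.08, -4.66 and -4.41 in knockout 1, 11 and 12, so that all 3 knockout lungs lay below all 3 wild-type lungs. The difference was -1.75 (SE 0.45; 95% interval -2.85 to -0.65), with limma p values of 0.00801 before and 0.9999 after adjustment. Day 1 alone gave -2.05, day 2 alone -1.12, and the fit with the day as a block -1.58. With normexp background correction the difference was -0.95. A second Vwc2 probe, which starts at 11218948, differed by -0.71 (SE 0.49) and by 0.31 within day 2.

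Plek encodes pleckstrin, a substrate of protein kinase C in platelets and leukocytes, and lies 12.8 Mb toward the centromere. One probe measured 2.25, 1.89 and 1.13 in the wild type against 0.76, 0.93 and 1.10 in the knockout, where each lung lay below each wild-type lung. The difference was -0.83 (SE 0.32) at a limma unadjusted p of 0.0388, and a second probe differed by -0.74 (SE 0.38). For the first, day 1 alone gave -0.28 and day 2 alone -0.97, and leaving out single lungs gave -0.58 (without wild type 11) to -1.14 (without wild type 13). All 10 listed neutrophil markers were also lower in the knockout, with a median difference of -1.10 and 3 of them at an unadjusted p under 0.05. Their summed level was 6.49 to 8.30 in the wild type against 5.55 to 7.64 in the knockout, and their part in the Plek difference was not tested. Of the listed lymphocyte markers, 8 of 8 for B cells (median 0.50) and 5 of 7 for T cells (median 0.21) were higher in the knockout. Lists of cells other than leukocytes shifted too. Markers of adipocytes (median -2.17) and mesothelium (median -0.54) were lower for 5 of 5 genes each. Those of skeletal muscle were higher for 5 of 5 (median 1.98), and the remaining lists held both signs. Besides the neutrophil markers, 3 of 5 adipocyte and 1 of 7 T cell markers had a limma unadjusted p under 0.05. None did in the other lists, and 0.842% of all probes did. In whole-lung RNA, fewer cells of a type and less RNA per cell cannot be told apart.

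A transcript named 8430419K02Rik, 10.9 Mb toward the centromere, measured -5.64, -5.70 and -4.54 in the wild type against -6.85, -5.83 and -6.52 in the knockout. These signals were near the lower limit, and 2 of the 3 knockout lungs were above background. The difference was -1.11 (SE 0.42) at a limma unadjusted p of 0.0362, and it was -0.41 with normexp background correction. The only flanking probe higher in the knockout at an unadjusted p under 0.05 was that of the transcript BC044739, 19.1 Mb toward the telomere. It measured -0.53, -0.52 and -0.29 in the wild type against 0.00, 0.31 and 0.13 in the knockout, with a difference of 0.59 (SE 0.18) at a limma unadjusted p of 0.0146. Day 1 alone gave 0.45 and day 2 alone 0.65.

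The largest difference of the flanks was that of Scgb3a1, a secretoglobin of airway secretory cells, 19.9 Mb toward the telomere. Its signal was 5.21, 4.61 and 5.28 in the wild type against -0.70, 3.96 and 3.22 in the knockout. All 3 knockout lungs lay below the wild-type lungs, but they were spread over more than 4 log2 units, with knockout 1 far below the others. The difference was -2.87 (SE 1.19; 95% interval -5.77 to 0.02), at a limma unadjusted p of 0.0511. Without knockout 1 it was -1.44. Among the 10 listed markers of the lung epithelium 2 were lower and 8 higher in the knockout, with a median difference of 0.09. Scgb1a1, a secretoglobin on that list, differed by 0.29. In knockout 1 the summed skeletal muscle markers stood at 8.42, against -1.84 to 2.62 in the other lungs. How the tissue content of that sample bears on Scgb3a1 was not tested.

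**Figure D4:**
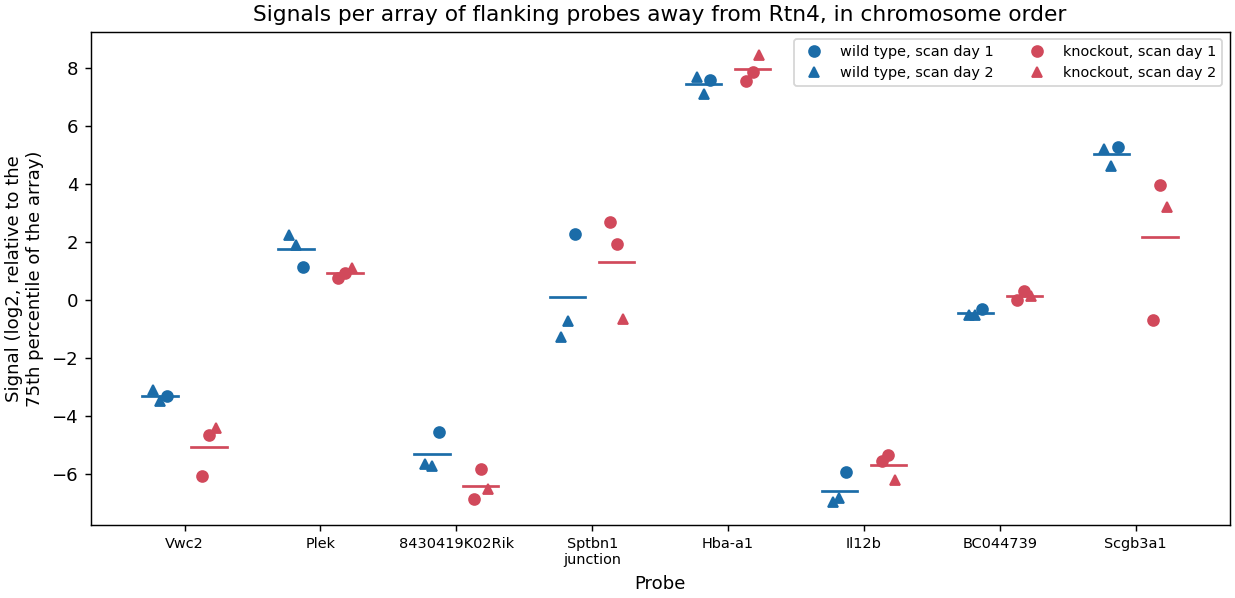
Signal of each lung (log2, with 0 at the array's 75th percentile) at 8 flanking probes in chromosome order, wild type in blue and knockout in red, circles for scan day 1 and triangles for scan day 2, with a line at each group's mean. Vwc2, Plek, 8430419K02Rik and Scgb3a1 have all knockout lungs below the wild-type lungs and BC044739 has them above, while the gap-spanning Sptbn1 probe separates by scan day.

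Other flanking probes showed smaller separations. Tmem17, a protein of the ciliary transition zone, measured -1.74, -1.62 and -1.58 in the wild type against -1.22, -1.30 and -1.45 in the knockout, a difference of 0.33 (SE 0.16) with groups that did not overlap. A probe of Wdpcp, a planar cell polarity effector needed for cilia, lay lower in every knockout lung, with a difference of -0.30 (SE 0.21). The other Wdpcp probes differed by -0.25 and -0.28, with overlapping groups. Single probes of Mdh1, the cytosolic malate dehydrogenase, of Sertad2 and of Spdl1, a kinetochore protein, had all knockout lungs below all wild-type lungs. They differed by -0.26 (SE 0.16), -0.22 (SE 0.19) and -0.30 (SE 0.17). The other probes of Mdh1 differed by 0.20 and 0.07 and that of Spdl1 by -0.004. That of Sertad2 differed by 0.53, and by -0.38 with the day as a block. Separation did not always repeat within a gene. The 2 such probes of Wdr92, whose starts lie 754 bases apart, separated in opposite directions, with differences of -0.17 (SE 0.16) and 0.12 (SE 0.15).

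Of the immune and lymphoid genes of the interval, 16 of 20 were measured by 27 probes. The list also counts Med7, a subunit of the general Mediator complex. Of the probes, 14 were lower and 13 higher in the knockout, with a median of -0.01 beside 0.01 over all probes. The Plek probe, 1 of 27, had an unadjusted p under 0.05, against 0.842% of all probes. With the day as a block, probes of Il12b and Btnl9 did too. Il12b, the subunit shared by the cytokines IL-12 and IL-23, measured -6.96, -6.80 and -5.93 in the wild type against -5.53, -5.34 and -6.20 in the knockout. These signals were above background on 1 wild-type and 2 knockout arrays, and the difference was 0.88 (SE 0.36), or 0.59 with the block. Lcp2, the adaptor SLP-76 of T cells and other leukocytes, differed by -0.43 (SE 0.28), and Ikzf1, the lymphoid transcription factor Ikaros, by 0.05 (SE 0.20). The interferon-induced GTPases Irgm1 and Ifi47 differed by -0.01 for both Irgm1 probes and by -0.18.

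The alpha globin genes and their neighbours, about 2.5 Mb toward the telomere, were the only list with all probes on one side. All 10 probes were higher in the knockout, with a median of 0.20. None had an unadjusted p under 0.05, against 0.842% of all probes. Day 1 alone gave a median of 0.01 and day 2 alone one of 0.36. Hba-a1, an alpha chain of haemoglobin, measured 7.79, 7.16 and 7.56 in the wild type against 7.58, 8.02 and 8.35 in the knockout at one probe, a difference of 0.48 (SE 0.28) with overlapping groups. The other Hba-a1 probe differed by 0.49 (SE 0.30). With normexp background correction they differed by 0.20 and 0.13, and in the authors' deposited values by 0.16 and 0.11. The 2 alpha globin genes are near-identical, so their signals cannot be separated. Mpg, a DNA repair glycosylase beside them, differed by 0.19 (SE 0.15) with groups that did not overlap. Of the 4 erythroid markers measured, 3 were lower and 1 higher, and their summed level was 3.73 to 4.25 in the wild type against 3.98 to 4.73 in the knockout.

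A list of growth factor signalling and guidance, 15 of 15 genes measured by 27 probes, had a median of 0.05. At an unadjusted p under 0.05 there were 0 probes, against 0.842% of all probes. The list also counts Bod1, Sec61g and Ranbp17, which are not genes of such signalling. The 5 probes of Egfr, the epidermal growth factor receptor, differed by -0.11 to 0.21, and Flt4, the receptor of lymphatic endothelium, by 0.17 (SE 0.20). Wwc1, also known as KIBRA, differed by 0.53 (SE 0.36) and by 0.25 with the block. Of a list of transcription factors 11 of 16 genes had a flanking probe and 7 were measured, with 5 probes lower and 9 higher. The list also holds Etaa1, an activator of the checkpoint kinase ATR, and Nsg2, an endosomal protein of neurons, which are not transcription factors. Bcl11a, which represses foetal globin genes, had 3 probes between 0.08 and 0.10, and Meis1, a homeobox factor, differed by -0.15 and 0.09. The 3 probes of Etaa1 differed by -0.76, 0.59 and -0.16, so the sign depended on the probe.

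The cytoskeletal genes, 10 of 13 measured by 21 probes, had 10 lower and 11 higher. Cyfip2, a subunit of the WAVE complex that drives actin branching, had 3 probes at -0.83, -0.16 and 0.03, and Ehbp1, an adaptor of endocytic traffic, differed by 0.96 (SE 0.50) and by 0.56 with the block. Genes of RNA and protein turnover, 14 of 21 measured by 31 probes, had a median of 0.05, and those of vesicle traffic and the endoplasmic reticulum, 7 of 12 by 17 probes, a median of 0.03. In both lists, and in the metabolic and cell cycle lists, the genes not measured had no flanking probe. Rtn4 itself, left out by the rule, is among those of the vesicle list. A list of metabolic genes, 11 of 14 by 20 probes, had a median of -0.04. It counts Ccng1 and Hmmr, which are not metabolic enzymes and are also among the cell cycle genes. The cell cycle genes, 7 of 9 by 10 probes, had a median of 0.05. Of the 5 GABA-A receptor subunits, Gabrp differed by 0.37 (SE 0.38) and Gabrb2 by -0.20 (SE 0.34), and the other 3 were not measured. In none of the lists from the globins on did a probe reach an unadjusted p under 0.05 in limma without the block. With it, Ehbp1 had an unadjusted p of 0.0381 and the Cyfip2 probe at -0.16 one of 0.0343, and neither passed after adjustment.

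Probes of the same gene often disagreed in sign, as they did over the whole array. Of 79 flanking genes with several measured probes, 40 had the same sign at each probe (50.6%), against 54.6% of 6928 genes over the array. The median range within a gene was 0.27 in the flanks and 0.21 over the array. Single lungs set some values: one Cnrip1 probe measured between -2.49 and -1.54 in 5 lungs and -8.26 in knockout 11, which gave a difference of -1.65 (SE 1.77), while the other 3 Cnrip1 probes differed by 0.12 to 0.42.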

How the data were processed

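Total RNA of 6 lungs was amplified, labelled with Cy3 and hybridised in 1 colour to Agilent arrays, as the labels' protocols say. An intensity for each spot, background-subtracted and detrended, stands in the deposited scanner files, whose headers name Feature Extraction 9.5.1.1 (the submitters' processing notes name 9.1). The authors' deposited series matrix holds log2 values that follow the unsubtracted median spot intensity; how it was made is not stated in the sources used. Positions are those of the array files (mm7). No genome was used, so exon, intron and UTR are not stated, and names come from RefSeq (GRCm38) where matched (32709 probes; 8435 kept the file's name).

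Unflagged spots of a probe were averaged as log2 of the processed signal, less the 75th percentile over the probes of the array; 30 probes flagged on an array were dropped. Probes above background on at least 3 of 6 arrays (30505) were fitted with limma 3.58.1 in R 4.3.3, two-sided, without covariates, with Benjamini-Hochberg adjustment over all of them, after a test on simulated data. Between 48 and 99 spots per array were flagged, and the number of arrays limits the precision. Probes were named under 2 Mb, at an unadjusted p under 0.01, by smallest p among separated probes and list members, or by size; BC044739, Btnl9, Ikzf1, Irgm1, Ifi47, Flt4, Bcl11a and Meis1 were named besides, after their values were seen. The flanks, gene lists, markers and naming rule were chosen with earlier results of these data known. Alternatives covered normalization, filters, scan day, slide, weights, the replicate block and each lung left out. Figures were drawn with matplotlib 3.10.9.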

Additional observations from a re-analysis of the deposited data

How the results depend on the processing

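Under all 21 alternatives 0 flanking probes passed an adjusted p under 0.05. Over the whole array 0 to 4 probes passed. Several alternatives gave 0 over the whole array, and there a 0 in the flanks says little. Among them were the filter at all 6 arrays, 1 probe for each gene and the replicate block. Each fit that dropped 1 lung numbered 11 or 12, of either genotype, was also among them. The count at an unadjusted p under 0.05, 4 in the report, was 7 with quantile normalization (2.20%, against 0.941% of all probes), 8 with scan day as a block (2.52% against 2.13%), 11 with slide as a random block (3.46% against 3.53%), 44 within scan day 2 alone (13.8% against 18.8%) and 94 with array weights (29.6% against 27.0%). Leaving out a lung gave 2 to 23, with 2 without wild type 11 or wild type 12 (0.429% and 0.498% of all probes), 11 without knockout 12 (4.12% of all probes) and 23 without wild type 13 (7.73% of all probes). The 17 probes with separated groups became 22 to 104 with a lung left out: 32 without knockout 1 (9.17% of all probes separated), 29 without knockout 11 (9.84%), 81 without knockout 12 (22.0%) and 104 without wild type 13 (29.8%). The median difference from 5 to 10 Mb, 0.03, was -0.066 with the day as a block and -0.081 on day 1 alone. The median size there, 0.15, was 0.24 within day 1, 0.26 with array weights and 0.10 to 0.30 with a lung left out. From 10 to 20 Mb it was 0.34 with array weights. Over the other bins, leaving out a lung gave median differences of 0.03 to 0.12 (under 2 Mb), 0.02 to 0.12, -0.03 to 0.01 (5 to 10 Mb) and -0.05 to 0.07, and median sizes of 0.12 to 0.30, 0.14 to 0.26 and, from 10 to 20 Mb, 0.15 to 0.33. The cause of these shifts was not tested. The numbers 11 and 12 occur in both groups, and whether they pair the lungs is not known here. Deviations from the group means correlated at -0.30 for number 11, scanned on different days, and at 0.47 for number 12, both of day 2. Wild type 11 and knockout 12, of unlike number but both of day 2, correlated at 0.61. Pairing therefore cannot be told apart from scan day by these values. A replicate block over the 4 lungs numbered 11 and 12 gave 6 probes at an unadjusted p under 0.05 (2.96% of all probes), and 135 separated (39.2% of all probes). Of the 95 probes chosen by the naming rule, 56 changed sign under at least 1 alternative and 39 kept it, and none of them had passed the threshold.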
